A study of Mus musculus with 8 samples.

Results

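The miR-379 to miR-410 cluster is a run of microRNA genes in the imprinted Dlk1-Dio3 domain of mouse chromosome 12. Its members were chosen by position, as every microRNA of the deposited table on chromosome 12 whose start fell in a fixed window around miR-379 to miR-410, in the coordinates of that table. This gave 65 of the 813 microRNAs and 2403 small RNA features listed. The rule read no expression value, but the region was picked with its genotype difference in these libraries already known. The KO and WT values below are therefore a description, with counts of calls beside those of all features but no p for a member. The 65 members came from 36 hairpins, 29 of them with both arms listed and 7 with 1 arm, and comprised 31 5p arms and 34 3p arms. The first was miR-379-5p, starting at position 110947274, and the last was miR-3072-3p, ending at 110986160, so the members spanned 38.9 kb. The sources used here do not give the genome build of these positions. RefSeq (GRCm38.p6) holds 58 of the members under the same name, and their positions there differed from those of the table by 1 constant distance. In that annotation 27 of the 36 hairpins lay between the non-coding RNA genes Rian and Mirg and 9 lay within Mirg. Of the RefSeq entries matched by name or sequence, those of 61 members were on the plus strand and that of miR-299b-5p was on the minus strand. The nearest microRNA outside the window was miR-370-3p, with values of 4 to 9 in the WT and 13 to 26 in the KO libraries. Just inside it, miR-379-5p had values of 1742 to 3758 and 4202 to 7174.

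The libraries came from immortalized skin fibroblasts of C57BL/6 mice, either wild type (WT) or of the mir210lox/lox genotype, the latter titled KO. WT and KO cells grew for 24 h at 21% O2 (normoxia) or at 1% O2 (hypoxia), and each of the 4 groups held 2 libraries, numbered 1 and 2. The labels give neither the agent that deleted the floxed allele nor the number of cell lines or mice behind a genotype, so a difference between genotypes and one between cell lines cannot be told apart. Separate cultures are not stated either, and the p-values cover the spread between these libraries, which may be technical.

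MiR-210-3p, the floxed microRNA and a known target of hypoxia-inducible factors, had values of 4786 and 8676 (normoxia) and 36738 and 39011 (hypoxia) in WT, against 23 and 14 and then 10 and 32 in KO, so the libraries matched their titles. The values are normalized read counts, deposited as whole numbers. They summed to 8618630 to 12167438 per library, of which microRNAs took 73.0% to 82.0%. The 10 fibroblast and mesenchymal microRNAs checked, among them miR-21 and miR-199a, were all listed. Together they held 59.6% to 61.9% of the microRNA total in WT and 58.7% to 67.9% in KO. They were uneven, from miR-21-5p at 2268463 to 3246233 down to miR-10b-5p at 29 to 59 and miR-196a-5p at 14 to 34. MiR-199a-3p and miR-199b-3p had nearly equal values (111421 and 111357 in WT normoxia number 1), so the sum may count the same reads in both rows. Summed epithelial markers were at 142 to 256 in WT and 100 to 290 in KO, and summed muscle markers at 128 to 292 and 116 to 235. Summed neural markers were at 867 to 1303 in WT and 716 to 1078 in KO, with miR-124 and miR-137 not listed. Summed haematopoietic markers, mostly miR-451, were at 1579 to 3078 and 841 to 2245, and the ranges of endothelial (143 to 191 and 102 to 145), pluripotent (37 to 58 and 40 to 44) and melanocyte markers (0 to 4 and 1 to 5) overlapped likewise.

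A microRNA gene is transcribed into a hairpin whose 5p and 3p arms are cut out as short RNAs, of which 1 is usually loaded into an Argonaute protein as the guide. The seed, bases 2 to 8 of that guide, does most of the pairing with target mRNAs. The Dlk1-Dio3 microRNAs are expressed from the maternal chromosome, together with the long non-coding RNAs and box C/D small nucleolar RNAs of the domain, under the control of a differentially methylated region. The cluster is best known from embryo, placenta and brain, where miR-134 limits the size of dendritic spines by repressing Limk1.

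The sequences below carry the results that follow, each 5′ to 3′ with the seed in capitals, from RefSeq (GRCm38.p6) or, for miR-376c-3p and miR-487b-3p, from the deposited sequence window. The first set holds the 12 most abundant members, in order of their mean level.
miR-379-5p: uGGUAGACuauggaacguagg
miR-299-5p: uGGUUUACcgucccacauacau
miR-411-3p: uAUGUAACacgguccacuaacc
miR-134-5p: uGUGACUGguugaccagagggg
miR-154-5p: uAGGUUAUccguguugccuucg
miR-376c-3p: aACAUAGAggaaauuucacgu
miR-410-3p: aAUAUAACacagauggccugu
miR-409-3p: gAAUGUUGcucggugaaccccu
miR-329-3p: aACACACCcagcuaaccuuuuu
miR-541-5p: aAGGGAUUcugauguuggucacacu
miR-376b-3p: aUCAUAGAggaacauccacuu
miR-382-5p: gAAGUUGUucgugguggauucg

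The 65 members had 61 distinct seeds, and 4 seeds were shared by more than 1 hairpin. MiR-379-5p shared GGUAGAC with miR-1193-5p, miR-411-3p shared AUGUAAC with miR-379-3p, miR-376b-5p shared UGGAUAU with miR-376c-5p, and miR-494-5p shared GGUUGUC with miR-410-5p. The partners of these pairs not yet shown read as follows.
miR-1193-5p: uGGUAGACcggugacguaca
miR-379-3p: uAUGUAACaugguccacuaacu
miR-376b-5p: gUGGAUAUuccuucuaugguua
miR-376c-5p: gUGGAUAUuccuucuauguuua
miR-494-5p: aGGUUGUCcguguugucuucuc
miR-410-5p: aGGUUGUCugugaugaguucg

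A further group of 3p arms had seeds 1 base apart, and is shown because its members differ in level and in genotype separation. Positions are counted from the 5′ end of the mature microRNA. MiR-154-3p differed in its seed from miR-485-3p by A2G and from miR-487b-3p by A5G, and miR-369-3p differed from miR-154-3p by A4C. MiR-410-3p differed from the AUGUAAC seed of miR-379-3p and miR-411-3p by A4G. In the miR-376 family, whose precursors are known to be edited from A to I in brain, miR-376c-3p differed from miR-376b-3p by A2U and miR-376b-3p from miR-376a-3p by A4G.
miR-154-3p: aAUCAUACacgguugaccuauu
miR-485-3p: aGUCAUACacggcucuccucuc
miR-487b-3p: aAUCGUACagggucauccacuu
miR-369-3p: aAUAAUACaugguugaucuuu
miR-376a-3p: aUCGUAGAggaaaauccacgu

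The mature sequence of miR-299b-5p lies within that of miR-299-5p, and its values, 19 to 67, were 49.3 to 80.2 times lower than those of miR-299-5p in the same libraries. Reads of miR-299-5p that lack their first base can match both, so the value of miR-299b-5p is uncertain.

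Levels of the members ranged widely. MiR-379-5p alone held 19.7% of the summed cluster counts, the 3 most abundant members 40.0%, the 12 most abundant 77.9% and the 32 least abundant 3.34%. Averaged over the 8 libraries, 29 members were at 100 or more and 12 below 10, and 4 members had a library at 0. The 5p arms held 58.4% of the counts and the 3p arms 41.6%. Position gave no order, as the Spearman rho between mean level and rank along the cluster was -0.01 over the 53 members with a mean of at least 10.

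**Figure D1:**
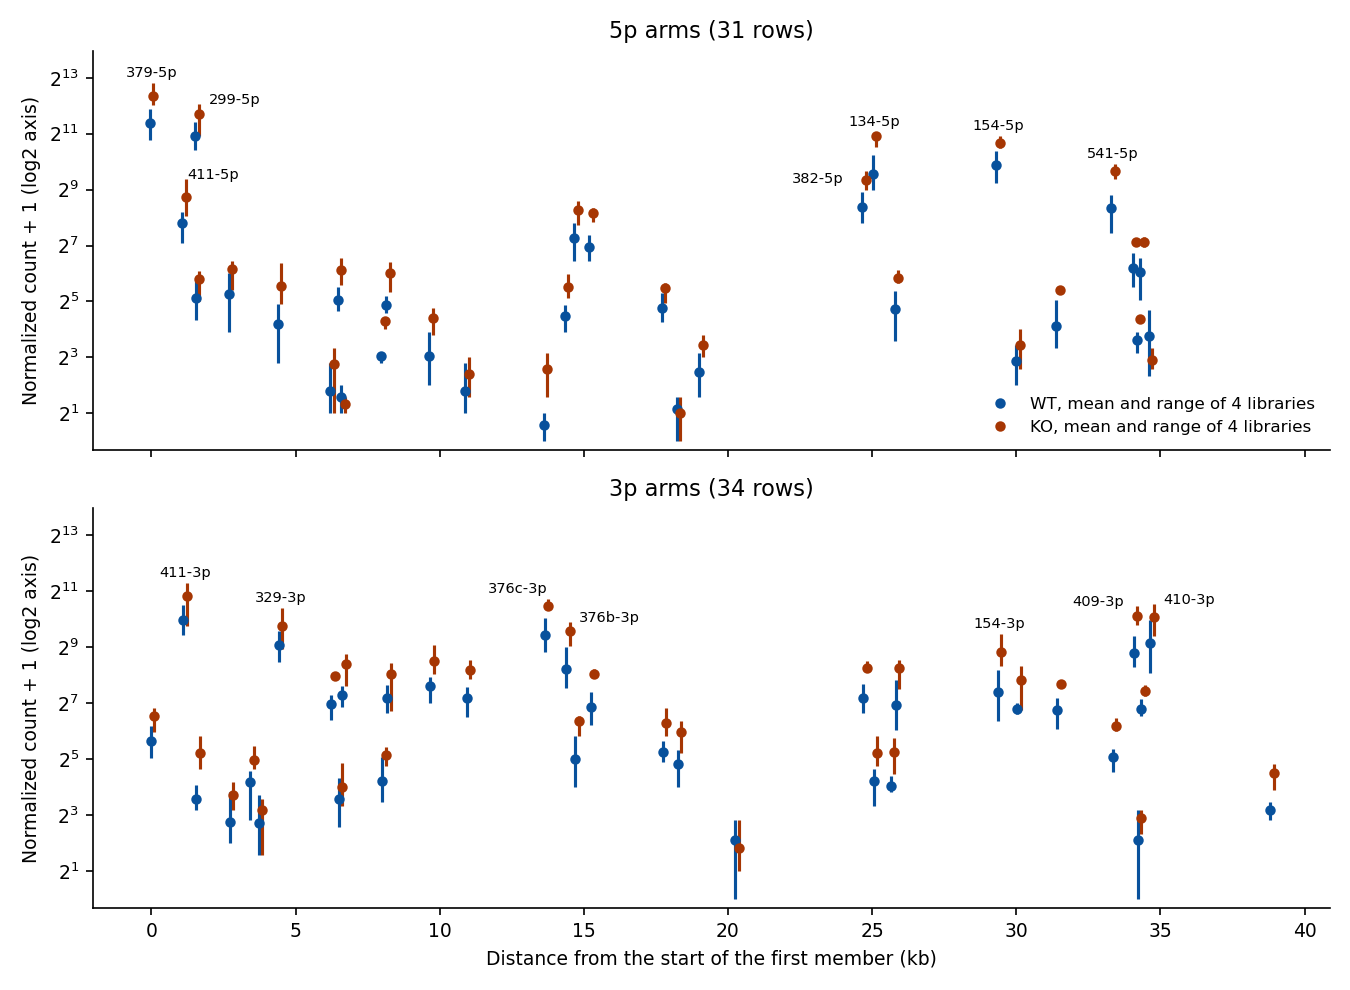
Normalized count plus 1 (log2 axis) of the 65 members against distance in kb from the start of miR-379-5p, for 5p arms (top) and 3p arms (bottom); points are means and bars the range of the 4 WT (blue) or 4 KO (orange) libraries. Abundant members occur at both ends of the cluster, and the KO mean lies above the WT mean in 61 of 65 members.

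The cluster as a whole was more abundant in the KO libraries. In the order of library numbers 1 and 2, it held 0.118% and 0.167% (normoxia) and 0.123% and 0.193% (hypoxia) of the microRNA total in WT, and 0.361% and 0.280% (normoxia) and 0.392% and 0.367% (hypoxia) in KO. The lowest KO share was above the highest WT share. Exact (Clopper-Pearson) 95% intervals for counting error alone were narrow, for example 0.164% to 0.169% for WT normoxia number 2, against a spread between libraries of 0.0344 to 0.0570 percentage points (SD, n = 2) in 3 of the groups and 0.0176 in the other. The mean share was 0.150% ± 0.0358 (SD, n = 4) in WT and 0.350% ± 0.0485 (SD, n = 4) in KO, a ratio of 2.33, with 2.25 in normoxia and 2.40 in hypoxia. The ratio depended on the denominator, as microRNAs outside the domain summed to 0.871 times as much in KO as in WT. It was 1.98 for the summed cluster counts (1.86 in normoxia and 2.09 in hypoxia) and 2.21 for the share of all features. In bulk libraries, fewer cells that express the cluster and less of its RNA per cell cannot be told apart.

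**Figure D2:**
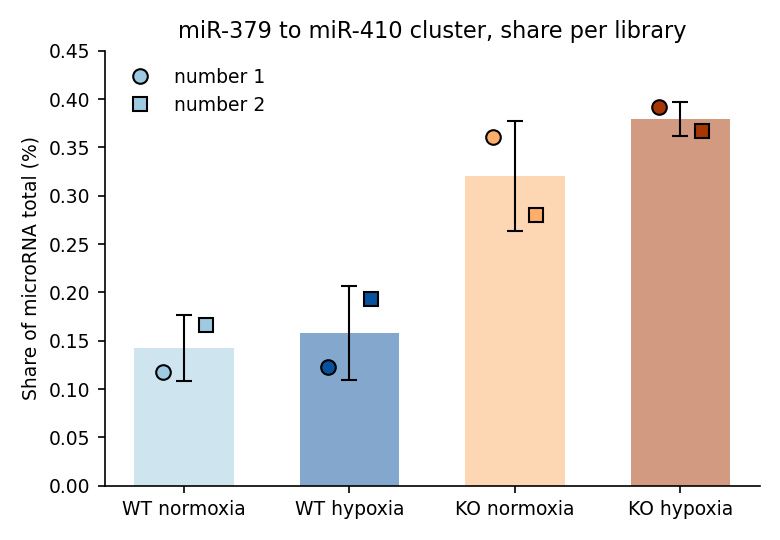
Share of the microRNA total (%) held by the 65 members; bars are group means, error bars the SD of 2 libraries, circles library number 1 and squares number 2. The KO libraries lie between 0.280% and 0.392%, all above the WT libraries, and in WT the number 2 library is the higher in both oxygen conditions.

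The WT libraries differed between numbers as well. Number 2 held 1.41 times the share of number 1 in WT normoxia and 1.56 times in WT hypoxia, against 0.776 and 0.937 times in KO. Of the 58 members that reached 10 in at least 2 libraries and were tested, 51 were higher in number 2 in WT normoxia and 57 in WT hypoxia, by a median log2 of 0.72 and 0.92, while the medians over all 1540 features tested were 0.03 and 0.02. The size of the genotype ratio followed this, at 3.06 in normoxia and 3.18 in hypoxia among the libraries numbered 1 and 1.68 and 1.90 among those numbered 2. Whether culture, RNA or library preparation accompanied the number was not tested.

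Among single members, 35 of 65 had every KO library above every WT library, and no member had every KO library below. This order held for 137 of all 2403 features (5.7%). The remaining 30 members overlapped between genotypes. The median ratio of KO to WT means over the 65 members was 2.05. Neither order along the cluster, level nor GC content ranked this ratio closely (Spearman rho 0.22, -0.11 and 0.13 over 53 members).

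MiR-379-5p, the most abundant member, had 1742 and 3126 (normoxia) and 2111 and 3758 (hypoxia) in WT, and 4202 and 4979 (normoxia) and 4358 and 7174 (hypoxia) in KO. No KO library overlapped a WT library. Averaged over oxygen, KO minus WT was 0.98 (SE 0.28) on the log2(value + 1) scale. MiR-134-5p, the regulator of dendritic spines, was at 507 and 807, 516 and 1194, 1477 and 2034, and 2062 and 2113 in the same order of groups. Its groups did not overlap either, with a difference of 1.42 (SE 0.29). MiR-409-3p was at 316 and 445, 341 and 668, 892 and 876, and 1427 and 1217, again without overlap, and had a difference of 1.35 (SE 0.25). Of the 12 most abundant members, miR-154-5p, miR-376c-3p, miR-541-5p, miR-376b-3p and miR-382-5p showed the same separation, with differences of 0.87 (SE 0.29) to 1.44 (SE 0.32).

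The other abundant members overlapped. MiR-299-5p had 1381 and 2014 (normoxia) and 1523 and 2725 (hypoxia) in WT, and 3158 and 1935 (normoxia) and 3966 and 4272 (hypoxia) in KO, so that KO normoxia number 2 fell within the WT range. MiR-411-3p was at 688 and 1140, 739 and 1442, 1755 and 867, and 2098 and 2513, with the same library low. MiR-329-3p showed this also, at 907 and 487 in KO normoxia against 355 to 769 in WT. MiR-410-3p, which was at 274 and 744, 272 and 992, 667 and 941, and 1192 and 1493, overlapped through high values of both WT libraries numbered 2. These 4 members differed by 0.79 (SE 0.26), 0.82 (SE 0.31), 0.64 (SE 0.33) and 1.08 (SE 0.43) in that order.

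Members that share a seed were summed. Rows with the GGUAGAC seed of miR-379-5p summed to 1.93 times as much in KO as in WT, those with AUGUAAC to 1.81 times and those with UGGAUAU to 2.26 times. Each of these sums came mostly from 1 row. MiR-1193-5p was at 1 to 3, and miR-379-5p alone had a ratio of 1.93. MiR-411-3p had a mean of 1405 of the 1475.5 for AUGUAAC, and miR-376b-5p 33.1 of the 35.9 for UGGAUAU. The sum for GGUUGUC was 0.817 times, from miR-410-5p and miR-494-5p, both near the detection limit. In the 154-like group miR-154-3p was at 82 and 204, 94 and 291, 323 and 331, and 709 and 460, and did not overlap. MiR-485-3p, at 64 to 224 in WT and 181 to 374 in KO, and miR-487b-3p, at 15 to 39 and 36 to 82, overlapped. MiR-369-3p did not, at 93 to 140 in WT and 152 to 201 in KO.

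Some members of intermediate level showed the same separation and others did not. MiR-494-3p was at 83 to 156 in WT and 245 to 265 in KO, and miR-377-3p at 67 to 145 and 199 to 208. Both arms of the balanced hairpin miR-300 were separated, miR-300-5p at 86 to 164 and 229 to 321 and miR-300-3p at 73 to 169 and 241 to 294. Both arms of miR-382 were separated as well, the 3p arm at 99 to 206 in WT and 273 to 362 in KO. Members of like level that overlapped included miR-496-3p, at 97 to 127 in WT and 106 to 318 in KO. So did miR-543-3p (99 to 198 and 103 to 343), miR-376a-5p (86 to 221 and 212 to 387) and miR-411-5p (135 to 294 and 263 to 671). MiR-3072-3p, the last member by position and apart from the others, was at 6 to 10 in WT and 14 to 27 in KO.

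The largest and smallest differences came mostly from low members. In normoxia the largest KO minus WT difference was 1.92 (SE 0.52) for miR-299-3p, at 10 and 8 in WT and 24 and 56 in KO. It was followed by miR-329-5p (1.74, SE 0.73), miR-377-5p (1.68, SE 0.55) and miR-495-5p (1.53, SE 0.61). At the other end stood miR-758-3p (-0.27, SE 0.86), miR-496-5p (-0.10, SE 0.66), miR-410-5p (-0.03, SE 0.64) and miR-323-3p (0.12, SE 0.52), each with an SE above its difference. In hypoxia the largest was 1.83 (SE 0.59) for miR-376a-3p, at 15 and 37 in WT and 90 and 83 in KO. MiR-154-3p (1.78, SE 0.56), miR-323-3p (1.72, SE 0.52) and miR-380-3p (1.67, SE 0.67) came next. MiR-323-3p was thus among the smallest in normoxia and among the largest in hypoxia. The smallest in hypoxia were miR-410-5p (-1.25, SE 0.64), miR-679-3p (0.39, SE 0.61), miR-381-5p (0.59, SE 0.42) and miR-679-5p (0.66, SE 0.40).

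Members whose KO mean was not above the WT mean were miR-1193-5p, miR-487b-5p, miR-544-3p and miR-410-5p. The first 3 never exceeded 6 in any library. MiR-410-5p had 4 and 9 (normoxia) and 12 and 25 (hypoxia) in WT, and 7 and 5 (normoxia) and 9 and 5 (hypoxia) in KO. It was the only one of the 58 tested members with a negative average difference, -0.64 (SE 0.45), and values this low carry large counting error.

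Across the 58 tested members the median KO minus WT difference was 0.90 in normoxia, with 55 higher and 3 lower, and 1.20 in hypoxia, with 57 higher and 1 lower. Over all 1540 features the medians were -0.06 and -0.04, and 45.6% and 45.3% were above 0. At a Benjamini-Hochberg adjusted p under 0.05 in limma, a linear model fitted across all features, no member was called in normoxia, in hypoxia or in the average. Those fits called 0.0649%, 0.13% and 0.13% of features. An unadjusted p under 0.05 with higher KO values was reached by 25, 41 and 52 members, against 8.64%, 7.14% and 12.3% of features. The count in the average depended on the processing, at 31 members after scaling to the microRNA total (5.52% of features called), 32 after scaling to the microRNAs outside the domain (5.65%), 29 with the library number as a block (5.91%) and 12 without WT hypoxia number 2 (1.88%). The medians depended on the WT libraries. In normoxia the median was 0.53 without WT normoxia number 1 and 1.38 without number 2, and in hypoxia it was 0.72 without WT hypoxia number 1 and 1.65 without number 2. Averaged over oxygen it was 1.07, with 57 members higher and 1 lower (43.2% of features were higher), and 0.63 without both WT libraries numbered 1. Since these contrasts were known when the region was picked, the counts are given as they stand.

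**Figure D3:**
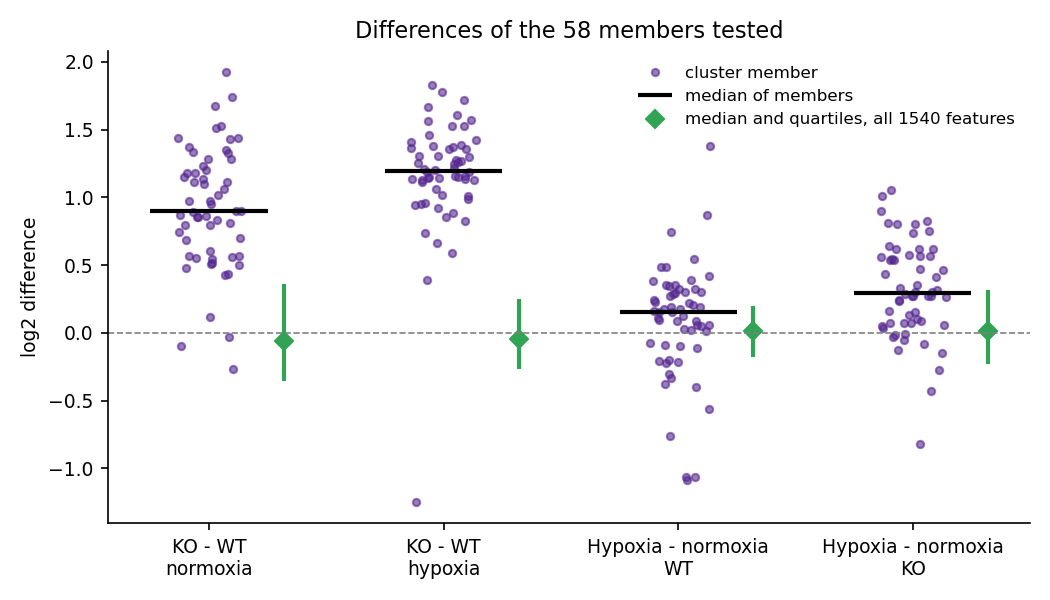
log2 differences of the 58 tested members in the 4 pairwise contrasts (points, with the median as a black line) beside the median and quartiles of all 1540 features (green). Members centre on 0.90 and 1.20 for KO minus WT, and on 0.15 and 0.29 for hypoxia minus normoxia.

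The other RNAs of the domain had the same order of genotypes. Upstream of the cluster 15 of 27 microRNAs had every KO library above every WT library, and the 20 tested had median differences of 1.03 in normoxia and 1.25 in hypoxia. MiR-127-3p, which is antisense to Rtl1 and targets its mRNA, had 3666 and 6967 (normoxia) and 2645 and 8899 (hypoxia) in WT, and 9133 and 12530 (normoxia) and 9629 and 14275 (hypoxia) in KO. Of the small nucleolar RNAs of the domain 11 of 15 were separated, and the 13 tested had medians of 1.34 and 1.29. Among all 511 small nucleolar RNAs listed 14 were separated, 3 of them outside the domain. The rows FR014374 and FR280892 overlap in position and have similar values, as do FR310934 and FR325285, so not all rows are separate loci. Of the 721 microRNAs outside the domain 3 were separated (0.416%), and the 501 tested had medians of -0.38 and -0.10.

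Hypoxia changed no member past the threshold. The position rule read no oxygen contrast, but earlier results of these data were known when the region was picked. In WT the median difference between hypoxia and normoxia was 0.15, with 41 members higher and 17 lower, and in KO it was 0.29, with 48 higher and 10 lower. All features had medians of 0.02 in both, with 52.1% and 52.3% above 0. The limma fit called no feature in either genotype (0% of 1540), and no member reached an unadjusted p under 0.05, against 1.3% and 5.39% of features. The smallest adjusted p among members was 1.00 in WT and 0.804 in KO. Elsewhere in KO, the 501 microRNAs outside the domain had a median of 0.24 and 371 were higher. The share of the microRNA total held by the cluster was 1.11 times as high in hypoxia as in normoxia in WT and 1.18 times in KO. Between libraries of the same number it was 1.04 times (number 1) and 1.16 times (number 2) as high in WT, and 1.09 and 1.31 times in KO, so higher in 4 of 4 comparisons. The numbers are not shown to be pairs, and this count was not tested. The median difference of the members, taken in the same way, was -0.01 and 0.21 in WT and 0.17 and 0.35 in KO.

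The WT median depended on single libraries. It was -0.37 without WT hypoxia number 2, -0.27 without WT normoxia number 1 and 0.59 without WT hypoxia number 1, and -0.01 among the libraries numbered 1. In KO the range was 0.24 to 0.39. The difference between the genotypes in their change with hypoxia had a median of 0.18, with 40 members higher and 18 lower where 52.2% of all features were higher, and the smallest adjusted p of a member in limma was 0.9996. That median was -0.19 without WT normoxia number 2 and -0.28 without WT hypoxia number 1. Averaged over genotype, the median change was 0.24, with 44 members higher and 14 lower (54.6% of features were higher), and the smallest adjusted p of a member in limma was 0.975. Without WT hypoxia number 2 that median was -0.03. No member had every hypoxia library above every normoxia library, an order found in 1.04% of features.

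In WT, the members with the largest hypoxia differences were of low abundance. MiR-539-5p was at 5 and 8 in normoxia and 2 and 3 in hypoxia, a difference of -1.08 (SE 0.62, limma adjusted p = 1.00). MiR-323-3p was at 23 and 22 in WT normoxia and 6 and 17 in WT hypoxia, while in KO it was at 24 and 25 and at 30 and 43. Its difference was -1.07 (SE 0.52) in WT, and the genotypes differed by 1.60 (SE 0.73, limma adjusted p = 0.9996) in that change. MiR-410-5p, at 4 and 9 against 12 and 25, had the largest positive WT difference, 1.38 (SE 0.64, limma adjusted p = 1.00). None of these passed the test.

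In KO the 2 largest differences among members above a mean of 100 rested on KO normoxia number 2. MiR-543-3p had 271 and 103 (normoxia) against 343 and 332 (hypoxia), a difference of 1.01 (SE 0.47, limma adjusted p = 0.804). MiR-411-3p differed by 0.90 (SE 0.44, limma adjusted p = 0.804). In each the hypoxia libraries were close to KO normoxia number 1 or above it, and only number 2 was low.

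The composition of the cluster was otherwise alike between libraries. Over the 35 members with a mean of at least 50, Pearson r between log2 values of libraries was 0.921 to 0.988 in the 28 pairs, a description across members that share a precursor region and library. The wide range of member levels alone keeps such r high, so it does not measure how alike the composition was. Relative to the median of the cluster in the same library, members had an SD of 0.206 to 0.315 on the log2 scale in 7 libraries and 0.455 in KO normoxia number 2. There 10 members lay more than 0.5 from the median. MiR-543-3p was at -1.22, miR-411-3p at -0.96, miR-496-3p at -0.92, miR-329-3p at -0.81 and miR-299-5p at -0.74. On the other side, miR-679-5p was at 0.59, miR-541-5p at 0.57 and miR-376a-3p at 0.57. Between the 2 KO normoxia libraries, 15.8% of all 1540 features tested differed more than 2-fold, against 10.3% of the 58 tested members. In the other groups 8.70% to 13.4% of all features did. Leaving that library out raised the number of members with every KO library above every WT library from 35 to 45 (7.32% of features, against 5.7% with all libraries). Leaving out a library can only keep or raise this count. Over the 8 libraries left out singly it ran from 35 to 45.

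**Figure D4:**
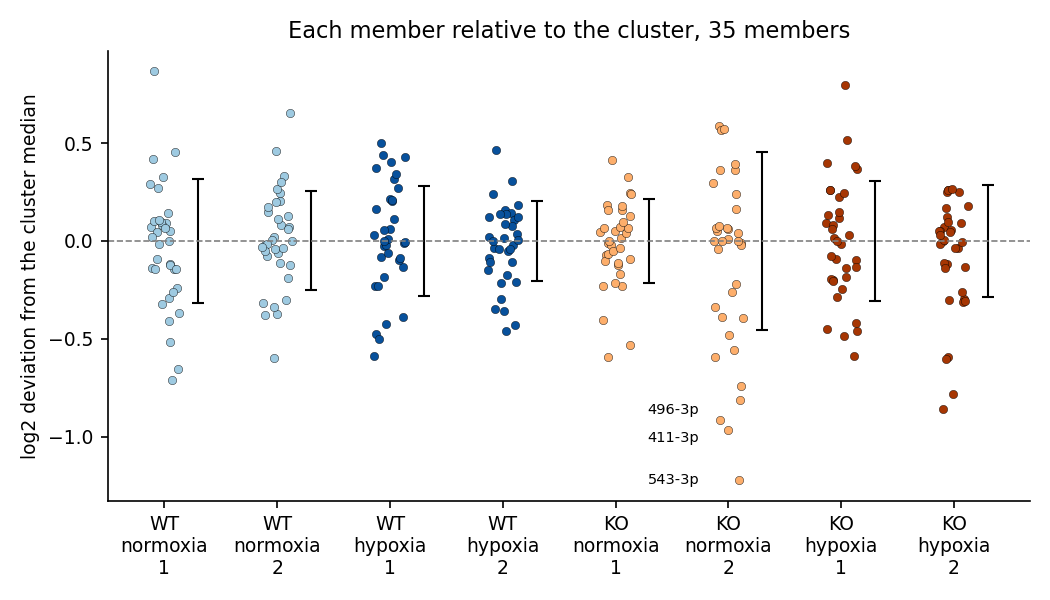
log2 deviation of 35 members (mean of at least 50) from the cluster median of the same library, after centring each member on its mean over the 8 libraries; brackets show 1 SD to each side of 0. KO normoxia number 2 has the widest spread, 0.455, with miR-543-3p lowest at -1.22.

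The ratio of 5p to 3p counts varied between hairpins far more than between libraries. Of the 29 hairpins with both arms listed, 18 had the 3p arm higher in 8 of 8 libraries and 10 had the 5p arm higher in 8 of 8. MiR-300 was balanced, with 202.6 on the 5p and 190.5 on the 3p arm, and the 5p arm higher in 5 libraries. The hairpins most tilted to the 5p arm were miR-299 (mean log2 ratio 6.91), miR-379 (5.77) and miR-134 (5.54). Those most tilted to the 3p arm were miR-376c (-8.44), miR-1193 (-6.40) and miR-410 (-6.27), whose 5p arms were near the detection limit.

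**Figure D5:**
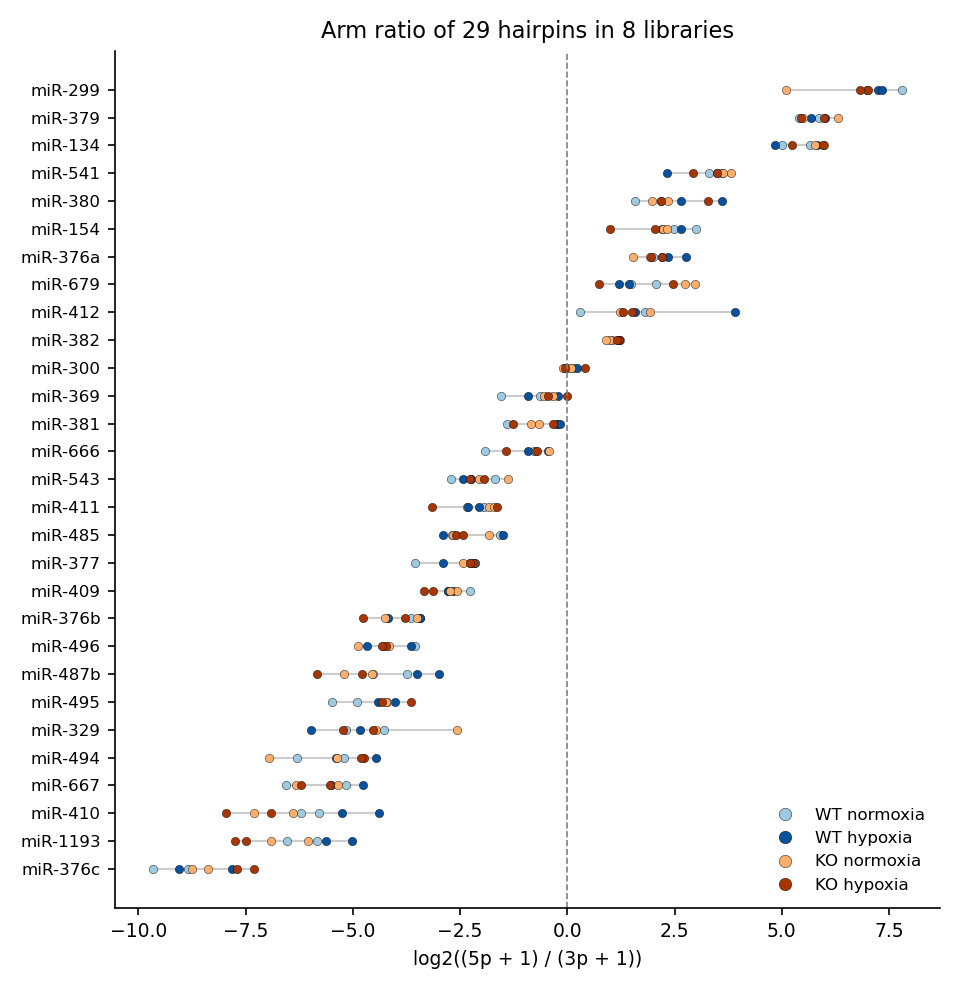
log2((5p + 1)/(3p + 1)) of the 29 hairpins with both arms in each of the 8 libraries, coloured by group and ordered by mean; grey lines show the range. Hairpins run from miR-299 at the 5p side to miR-376c at the 3p side, and miR-300 is the one whose libraries lie on both sides of 0.

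The position rule did not read the arm ratio, which could be tested for 23 cluster hairpins among 178 in the table. No cluster hairpin changed between genotypes or with oxygen at an adjusted p under 0.05 in limma, in fits that called 1.12% of hairpins for KO minus WT in normoxia, 0.562% in hypoxia, 0.562% in the average and 0% in the others. An unadjusted p under 0.05 was reached for KO minus WT by 1 of the 23 cluster hairpins in normoxia, 1 in hypoxia and 2 in the average (4.35%, 4.35% and 8.70%), against 5.62%, 3.37% and 5.06% of the 178 hairpins. For hypoxia minus normoxia no cluster hairpin reached it in WT or in KO (1.69% and 4.49% of hairpins), and 1 did, miR-380, averaged over genotype (0.91, SE 0.40, limma adjusted p = 0.868; 2.81% of hairpins). For the difference between genotypes in the hypoxia change it was reached by 1, miR-410 (-1.77, SE 0.76, limma adjusted p = 0.992; 3.93% of hairpins). These shares lie near those of all hairpins. MiR-410 came nearest. Its log2 ratio stood at -5.78 and -6.22 (normoxia) and -4.39 and -5.26 (hypoxia) in WT, and at -6.38 and -7.29 (normoxia) and -6.90 and -7.96 (hypoxia) in KO, so that each KO library was more tilted to the 3p arm than each WT library. The difference was -2.61 (SE 0.54, limma adjusted p = 0.0862) in hypoxia and -1.72 (SE 0.38, limma adjusted p = 0.0855) in the average, and the leave-one-out values of the average ran from -1.99 to -1.46. With the library number as a block it was called in both, in fits that called 2 of the 178 hairpins (1.12%) each. It rests on 4 to 25 counts of miR-410-5p. MiR-299 in normoxia (-1.36, SE 0.59, limma adjusted p = 0.820) and miR-154 in hypoxia (-0.90, SE 0.43, limma adjusted p = 0.998) did not pass. The log2 ratio of miR-299 was 6.97 and 7.81 in WT normoxia, 6.98 in KO normoxia number 1 and 5.09 in KO normoxia number 2. Its normoxia difference thus rested on KO normoxia number 2. With 1 library left out it ran from -2.30, without KO normoxia number 1, to -0.41.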

How the data were processed

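The values used are the authors' score per feature and library, deposited as normalized read counts in whole numbers; the aligner, the build, the normalization and the treatment of multiply matching reads were not given in the sources used here. Per the labels' protocols, miRNeasy was the extraction kit and NEBNext small RNA (SOLiD) the library kit. Low values were best matched by multiples of 0.826 to 1.138, taken as the worth of 1 read (weakly determined in WT normoxia number 1 and KO hypoxia number 1). Dividing the library totals by it gave an estimate of 7573489 to 13482280 reads assigned. Reads that match several rows may count more than once in it. A count of 0 allows up to 3.48e-05% of a library (3 counts of the total). Intervals cover counting error only.

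Features with at least 10 in at least 2 of 8 libraries (1540 of 2403) entered limma 3.58.1 (R 4.3.3; intensity trend) on log2(value + 1) with 4 group means, Benjamini-Hochberg adjustment and a threshold of 0.05; the residual degrees of freedom were 4. Arm ratios were fitted alike over 178 hairpins. Folds on this scale understate changes of low members. A check of the fit on simulated data drew each feature separately, with no shift shared by members. It therefore does not cover shared shifts such as that between the WT libraries. Tables were made with Python 3.11.15.

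Named members were the 12 most abundant, the extremes of each contrast and of the arm ratio, shared-seed groups and the first and last. Members named outside this rule were chosen after their values were seen. Members and lists were chosen with earlier results of these data known. Alternatives were the pseudocount, filter, scaling, trend, library number as a block and leaving out libraries.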

Additional observations from a re-analysis of the deposited data

How the results depend on the processing

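The number of members called for KO minus WT averaged over oxygen, 0 as deposited, was 31 after scaling to the microRNA total, 32 after scaling to microRNAs outside the domain, 29 with the replicate number as a block, and 0 to 12 when 1 library was left out. The 2 scalings moved the median of all features from -0.06 to 0.13 and 0.14, and the cause of the gain in calls was not tested. The medians of the members had leave-one-out ranges of 0.53 to 1.38 for KO minus WT in normoxia, 0.72 to 1.65 in hypoxia, and -0.37 to 0.59 for hypoxia minus normoxia in WT. Without WT normoxia number 1 and WT hypoxia number 1 together, a choice made after seeing the data, KO minus WT was 0.72 in hypoxia and 0.63 averaged. Within the libraries numbered 1, also added later, it was 1.40 in normoxia. Arm ratio calls, 0 in every contrast, became 1 in hypoxia and 1 in the average under the block (1.12% of hairpins called in each). The miR-299 difference in normoxia, -1.36 with all libraries, was -2.30 without KO normoxia number 1, where KO normoxia number 2 alone stood for its group.

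Deviations by number correlated between groups (r 0.15 to 0.55 over 1540 features), but 2 numbers per group do not establish pairs, so the block was not the chosen fit. Differences of low members reversed. After scaling to the microRNA total and to the microRNAs outside the domain, KO minus WT in normoxia turned to 0.12 and 0.12 for miR-496-5p and to 0.18 and 0.19 for miR-410-5p. Without the WT libraries numbered 1, miR-679-3p stood at -0.043 in hypoxia.

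With 1 library left out, KO minus WT in normoxia ran from -1.27 to 0.73 for miR-758-3p, from -0.67 to 0.47 for miR-496-5p and from -0.53 to 0.47 for miR-410-5p. In the same way KO minus WT in hypoxia ran from -0.19 to 0.97 for miR-679-3p, and hypoxia minus normoxia from -1.62 to 0.085 for miR-758-3p in WT and from -0.75 to 0.44 for miR-299-3p in KO. Fits that left out a library kept 1 library in its group, which was assumed to vary like the others.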

Other observations

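Outside the domain, 3 microRNAs had every KO library above every WT library, and they were picked out after their values were seen. MiR-452-5p, on chromosome X, had 124 and 78 (normoxia) and 158 and 132 (hypoxia) in WT, and 190 and 250 (normoxia) and 293 and 280 (hypoxia) in KO. The other arm of that hairpin, miR-452-3p, was at 29 to 43 in WT and 65 to 74 in KO. MiR-218-1-3p, on chromosome 5, was at 1 to 10 in WT and 11 to 16 in KO. Of the 137 features with this order, 61 lay in the domain and 67 were genomic transfer RNAs, of which 423 were listed.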
